A study of Arabidopsis thaliana with 6 samples.

Results

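The core histone genes of *Arabidopsis thaliana* were compared between WT seeds and *agl62* seeds. The set holds 41 genes, taken by locus identifier as genes for histones H3 (with H3.1, H3.3 and CENH3), H4, H2A and H2B from the 32678 genes of the table, by a rule that uses no measured value. By class, there were 5 H3.1 genes, 3 H3.3 genes, 5 other H3 genes, 8 H4 genes, 12 H2A genes and 8 H2B genes. The H2A genes comprised 4 replicative H2A, 2 H2A.X, 3 H2A.W and 3 H2A.Z genes.

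DNA is wrapped around an octamer of H2A, H2B, H3 and H4 to form the nucleosome. Replicative histones such as H3.1 are made in S phase and placed behind the replication fork, whereas the replacement variant H3.3 is made and placed also outside S phase and is abundant over transcribed genes. CENH3 marks centromeres, H2A.X is phosphorylated next to DNA breaks, H2A.W sits in the heterochromatin of plants, and H2A.Z lies around the start of genes. In a young seed the nuclei of the endosperm divide rapidly, while the seed coat grows from the integuments of the ovule. In plants, unlike in animals, mRNAs of replicative histones carry poly(A) tails.

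AGL62 is a MADS-box transcription factor of the endosperm, and *agl62* seeds cellularize their endosperm too early and abort. Whole seeds of both genotypes, which hold endosperm, embryo and seed coat, were collected at 30 h after pollination. By the study's methods the *agl62* plants were emasculated and hand-pollinated, and the handling of the WT plants of these libraries was not described. There were 3 biological replicates of each genotype and thus 6 libraries. The WT strain of these libraries and the pollen donor were not given in the sources used here. The mutant seeds are labelled *agl62*/-; by the study's methods they came from homozygous *agl62* plants, which arise rarely and yield few viable seeds, so they may not stand for all seeds that lack AGL62. A legend of the study names *agl62*/+ seeds instead. The allele of the study was *agl62-2*. The study used the comparison to look for auxin transporter genes with less RNA in the mutant.

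The values used here are the authors' means of the normalized read count in each genotype, written to 3 digits. No value of a single library was at hand, so no SD can be given and no test was run, and the differences were not set against the spread between the 3 libraries of a genotype. The intervals given are 95% intervals for counting error alone, worked out from the relative depth of the libraries (0.456 to 1.38 in WT and 1.06 to 1.3 in *agl62*). They therefore show only whether a ratio could come from the sampling of reads, and they leave out rounding. *AGL62* (AT5G60440) had a mean of 410 in WT and 1.81 in *agl62*, in the direction of the labels. Of all genes, 19264 had both means of at least 10, and the median log2 of their ratio, *agl62* over WT, was 0.01, with the middle 50% between -0.14 and 0.17. In whole seeds, fewer cells of a type and less RNA per cell cannot be told apart.

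The genes of H3.1, of H3.3 and of H4 code for the same protein within each class, so only silent differences and untranslated sequence tell their reads apart. In the RefSeq annotation of TAIR10.1, the 5 H3.1 genes encode 1 protein through 5 distinct coding sequences that are 80.3% to 89.5% identical, the 3 H3.3 genes encode 1 protein (78.6% to 88.8%), and the 8 H4 genes encode 1 protein (78.8% to 98.1%). H3.1 and H3.3 differ at 4 residues, A31T, F41Y, S87H and A90L, written with the H3.1 residue first, the H3.3 residue last and positions counted from the residue after the first methionine. Residue 31 is the one by which the plant methyltransferases ATXR5 and ATXR6 tell H3.1 from H3.3. The coding strands below run 5′ to 3′ from codon 28 to codon 43 for the 2 genes of each variant with the highest level per kb, and for the H3 genes with the lowest and the highest ratio among those with both means of at least 10, with codons 31 and 41 in capitals.
AT1G09200 (H3.1): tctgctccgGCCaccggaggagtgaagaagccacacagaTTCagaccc
AT5G65360 (H3.1): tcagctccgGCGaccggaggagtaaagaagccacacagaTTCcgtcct
AT4G40040 (H3.3): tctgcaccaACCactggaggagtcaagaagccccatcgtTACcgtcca
AT5G10980 (H3.3): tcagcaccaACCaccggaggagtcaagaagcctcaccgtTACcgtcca
AT1G75600: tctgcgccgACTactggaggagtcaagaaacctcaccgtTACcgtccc
AT1G13370: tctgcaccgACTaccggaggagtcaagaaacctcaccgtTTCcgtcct

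These stretches lie, on TAIR10.1, at chr1:2972001-2972048 (AT1G09200, minus strand), chr5:26120378-26120425 (AT5G65360, minus), chr4:18558018-18558065 (AT4G40040, minus), chr5:3472960-3473007 (AT5G10980, minus), chr1:28390927-28390974 (AT1G75600, plus) and chr1:4588391-4588438 (AT1G13370, minus), each within 1 coding exon. The second pair of residues lies in codons 84 to 93, shown for 1 gene of each variant with codons 87 and 90 in capitals, at chr1:2971851-2971880 and chr4:18557668-18557697 on the minus strand.
AT1G09200 (H3.1): ttccagagcAGTgccgtcGCCgctcttcag
AT4G40040 (H3.3): ttccagagcCATgctgtgCTTgcactccag

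No stretch of 100 bases, the length of a read, had an exact copy elsewhere in the genome for 37 of the 41 genes. The exceptions were H4 genes: AT1G07660 shared 7.25% of its 100-base windows, AT1G07820 4.32%, AT3G45930 11.1% and AT3G46320 12.1%. Only uniquely mapping reads were kept, so the counts of these genes may lack some reads, and how reads split between such near copies is uncertain. The annotated spans of AT3G27360, AT5G12910, *GAMMA-H2AX*, *HTA9*, *HTA12*, *HTA13* and *HTB9* overlap that of another gene, and the use of strand in counting was not given in the sources used here, so their means may hold reads of a neighbour.

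Histone genes were strongly expressed in the seeds of both genotypes. Per kb of exons, the 41 genes together summed to a normalized count of 423158 in WT and 409038 in *agl62*, and without division by length they held 0.640% of all normalized counts in WT and 0.642% in *agl62*. Both means were at least 1000 for 34 of the 41 genes, against 10026 of all 32678 genes listed. Per kb, the most abundant gene was AT4G40040, an H3.3 gene, with 31722 in WT and 32781 in *agl62*, followed by the H2B gene *HTB2* (AT5G22880) with 29398 and 28099. The least abundant in WT was *MGH3* (AT1G19890), the H3 of sperm cells, with 2.93 per kb in WT and 2.80 in *agl62*. The summed levels per kb of whole classes in WT were 147378 for H3, 79327 for H4, 95429 for H2A and 101024 for H2B.

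**Figure D1:**
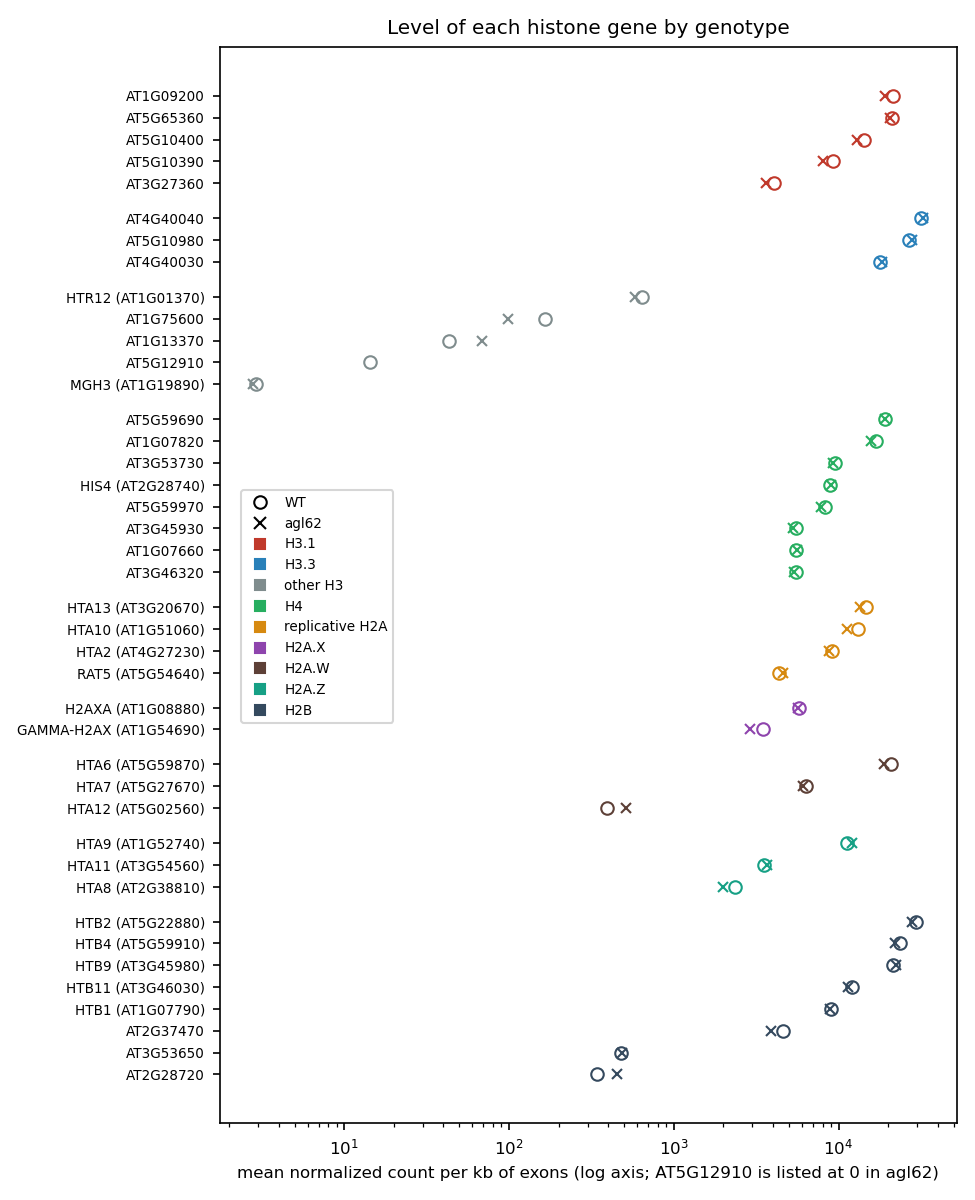
Level of each core histone gene, as the authors' mean normalized count divided by the exon length in kb, on a log axis. Circles are WT and crosses are *agl62* (1 mean of 3 libraries each, without error bars because single libraries are not listed), and colours mark the histone classes. Within nearly every gene the 2 marks almost coincide, while the genes themselves span from 2.93 (*MGH3*) to 31722 (AT4G40040) in WT.

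The core histone genes differed little between the genotypes, as did most genes. Of the 39 with both means of at least 10, none was lower in *agl62* by 2-fold or more, against 1.67% of all genes, and none was higher by 2-fold or more, against 1.67%. At 1.5-fold, 1 gene was lower (AT1G75600; 3.76% of all genes) and 1 was higher (AT1G13370; 5.43%). Among the 34 genes with both means of at least 1000, 33 lay within 1.2-fold either way, against 81.0% of all 10026 genes at that level, and the exception was *GAMMA-H2AX*. That last count was chosen after seeing the data.

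More of the histone genes had lower than higher means in *agl62*. A ratio below 1 was found for 25 of the 39 genes, against 47.6% of all genes, and a ratio above 1 for 14, against 51.3%. That background holds all genes with both means of at least 10, whereas 34 of the histone genes had both means of at least 1000. The 10026 genes at that higher level had a median log2 ratio of -0.01, so a ratio below 1 was more common there than 47.6%. With both columns scaled to equal totals, which adds 0.05 to each log2 ratio, the count below 1 became 20 of 39, against 39.3% of all genes; the 5 genes that turned were AT5G65360, AT3G46320, AT3G53730, *H2AXA* and *HTB1*. The median log2 ratio of the 39 genes was -0.06, from -0.74 (AT1G75600) to 0.67 (AT1G13370). The summed mean of all 41 genes was 386514 in WT and 375276 in *agl62*, a log2 ratio of -0.04 that turned to 0.01 with equal totals.

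**Figure D2:**
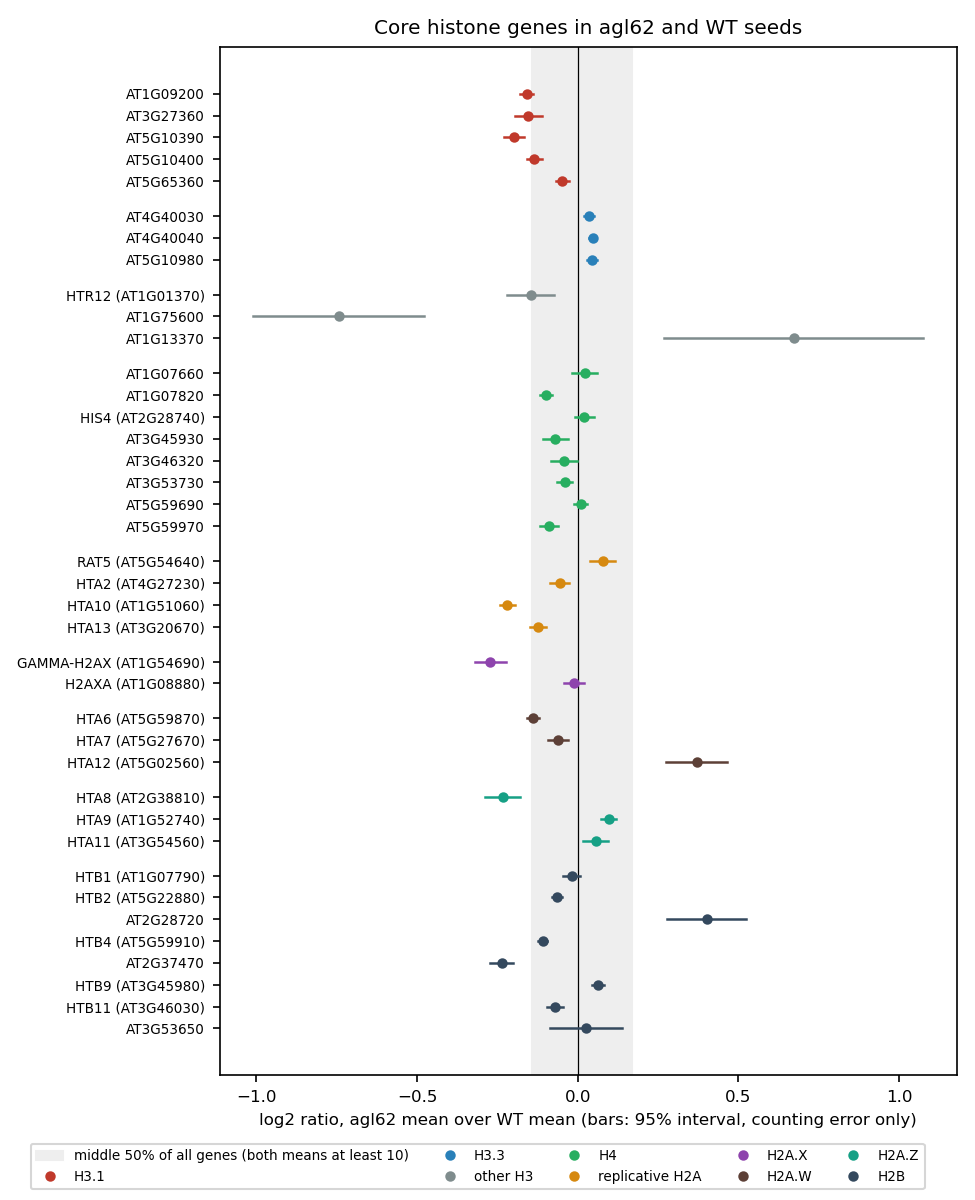
Log2 ratio of means (*agl62* over WT) for the 39 core histone genes with both means of at least 10, ordered by class. Points are ratios of the authors' means, bars are 95% intervals for counting error alone, and the grey band holds the middle 50% of all genes (-0.14 to 0.17). The 5 H3.1 genes lie left of 0 and the 3 H3.3 genes right of it; with equal totals all points move right by 0.05, which carries AT5G65360 of the H3.1 genes past 0.

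H3.1 and H3.3 genes lay on opposite sides. All 5 H3.1 genes had lower means in *agl62*, from -0.20 to -0.05 on the log2 scale, except that AT5G65360 passed 0 with equal totals. All 3 H3.3 genes had higher means, from 0.04 to 0.05, also with equal totals. AT1G09200 had means of 16300 in WT and 14600 in *agl62* (log2 ratio -0.16, counting interval -0.18 to -0.14). AT3G27360 had means of 3360 and 3020 (-0.15). The lowest ratio of the class was that of AT5G10390, with 6540 and 5700 (-0.20, -0.23 to -0.17). Its neighbour AT5G10400 had 11200 and 10200 (-0.13), and AT5G65360 had 15300 and 14800 (-0.05, -0.07 to -0.03). The class sum was 52700 in WT and 48320 in *agl62*, a change of -8.31% (log2 ratio -0.13, counting interval -0.14 to -0.11).

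Among the H3.3 genes, AT4G40030 had means of 23600 in WT and 24200 in *agl62* (log2 ratio 0.04). AT4G40040 had 47900 and 49500 (0.05), and AT5G10980 had 22000 and 22700 (0.05). The sum of the class was 93500 in WT and 96400 in *agl62*, a change of 3.1% (log2 ratio 0.04, 0.04 to 0.05). The log2 ratio of the H3.1 sum was lower than that of the H3.3 sum by 0.17 (difference -0.17, counting interval -0.18 to -0.16). This difference does not depend on the scaling of the columns, but it was looked at after seeing the data, and it was not set against the spread between libraries. On sums not divided by length, there was 0.564 of an H3.1 count per H3.3 count in WT and 0.501 in *agl62*. Per kb of exons, H3.1 genes gave 47.5% of the H3 level in WT and 44.7% in *agl62*, and H3.3 genes gave 51.9% and 54.8%.

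The H3.1 genes shared the level of their class unevenly and in nearly the same way in both genotypes. Per kb, AT1G09200 gave 30.4% of the H3.1 level in WT and 29.7% in *agl62*, AT5G65360 gave 30.2% and 31.8%, AT5G10400 gave 20.3% and 20.2%, AT5G10390 gave 13.3% and 12.6%, and AT3G27360 gave 5.76% and 5.64%. AT5G65360 was hence the leading H3.1 gene in *agl62* and the next after AT1G09200 in WT, with levels in WT of 21162 and 21335 per kb. For H3.3, AT4G40040 gave 41.5% in WT and 41.6% in *agl62*.

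**Figure D3:**
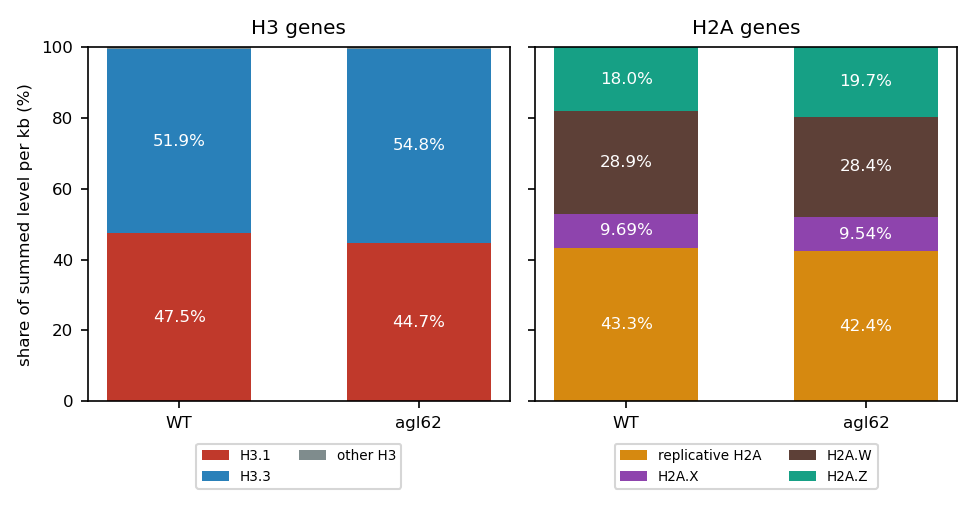
Share of the H3 and the H2A level per kb of exons that each variant held in WT and *agl62*, from sums of the authors' means (1 bar per genotype, without error bars). H3.1 took 47.5% of the H3 level in WT and 44.7% in *agl62*; H2A.Z took 18.0% and 19.7% of the H2A level. The other H3 genes, 0.588% and 0.521%, are the thin strip at the top.

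The remaining H3 genes held little of the H3 level and included the lowest and the highest ratio of the whole set. *HTR12* (AT1G01370), the gene for CENH3, had means of 1140 in WT and 1030 in *agl62* (log2 ratio -0.15, counting interval -0.22 to -0.07), close to the H3.1 genes. AT1G75600 had means of 103 and 61.5 (-0.74, -1.01 to -0.48). Its protein carries the H3.3 residues at all 4 positions that part H3.1 from H3.3, and it differs from H3.3 by 5 substitutions (T11H, K18T, Q19L, F78Y and I124V, H3.3 residue first). AT1G13370 had means of 30 and 47.8 (0.67, 0.27 to 1.08). It differs from H3.3 by 7 substitutions, of which Y41F gives the H3.1 residue, as its capitals above show, the others being T6S, T11H, R17T, I62N, I124V and G132A. Among all genes with both means of at least 10, 2.51% had a ratio below that of AT1G75600, and 95.8% had one below that of AT1G13370. The 2 genes lie at chr1:28390665-28391585 (plus strand) and chr1:4587780-4588661 (minus strand) on TAIR10.1.

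*MGH3* had means of 2.11 in WT and 2.02 in *agl62*, which stand for 4 to 8 counts in the 3 WT libraries together and 7 counts in the *agl62* libraries, and no difference was detectable at this depth. AT5G12910, annotated as a gene of the histone superfamily, had a mean of 5.68 in WT, or 9 to 21 counts, and was listed at 0 in *agl62*. These are the 2 members that did not reach a mean of 10 in both genotypes.

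The 8 H4 genes were nearly level between the genotypes. In *agl62* 5 had lower and 3 had higher means, from -0.10 (AT1G07820, 16500 in WT and 15400 in *agl62*, counting interval -0.12 to -0.08) to 0.02 (AT1G07660, 4000 and 4060, -0.02 to 0.06). The highest level per kb was that of AT5G59690, with means of 14200 and 14300 (0.01, -0.01 to 0.03). *HIS4* (AT2G28740) had 6390 and 6480 (0.02). The sum was 66760 in WT and 64880 in *agl62*, a log2 ratio of -0.04 that turned to 0.01 with equal totals and was -0.02 without AT1G07820. As for H3.1 above, the ratio of H4 to H3.3 was taken on sums not divided by length. It was 0.714 in WT and 0.673 in *agl62*, a log2 difference of -0.09 (counting interval -0.10 to -0.07). Per kb of exons, the H4 level was 79327 against 76441 for H3.3 in WT, and 77365 against 78810 in *agl62*. The order of H4 and H3.3 in WT therefore depends on the division by length. That length joins the exons of all annotated transcripts, of which AT4G40030 has 4 and AT4G40040 has 3. Which class had more RNA is thus not settled here.

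Replicative H2A genes leaned to lower means in *agl62*, with a sum of 31840 in WT and 29420 in *agl62* (log2 ratio -0.11, counting interval -0.13 to -0.10), a change of -7.60%. *HTA10* (AT1G51060) had the lowest ratio, with means of 11000 and 9450 (-0.22, -0.24 to -0.20). *HTA13* (AT3G20670), the most abundant of them per kb, had 9780 and 8980 (-0.12), and *HTA2* (AT4G27230) had 7300 and 7020 (-0.06). *RAT5* (AT5G54640), named for the resistance of its mutant to *Agrobacterium* transformation, went the other way with 3760 and 3970 (0.08, 0.04 to 0.12). Leaving out *HTA10* moved the log2 ratio of the class to -0.06.

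The variants of H2A differed among themselves. *GAMMA-H2AX* (AT1G54690) had means of 2800 in WT and 2320 in *agl62* (-0.27, -0.32 to -0.22), the lowest ratio among the 34 genes with both means of at least 1000. The other H2A.X gene, *H2AXA* (AT1G08880), had 6340 and 6290 (-0.01, -0.04 to 0.02, above 0 with equal totals), and its counting interval did not overlap that of *GAMMA-H2AX*. These intervals leave out the spread between libraries, so they do not show that the genes differ. The span of *GAMMA-H2AX* also overlaps other genes, as given above. Both H2A.X proteins end in the SQEF tail that is phosphorylated at DNA breaks. *HTA6* (AT5G59870) is the main H2A.W gene and the most abundant H2A gene per kb, with 21.9% of the H2A level in WT. Its means were 16300 and 14800 (-0.14, -0.16 to -0.12), those of *HTA7* (AT5G27670) 5990 and 5740 (-0.06), and those of the scarce *HTA12* (AT5G02560) 595 and 769 (0.37, 0.28 to 0.46). All 3 proteins contain the SPKK motif of H2A.W. *HTA12* is overlapped on the other strand by the H2B gene *HTB10* (AT5G02570), which had means of 34.1 and 39.3. The H2A.W sum was 22885 in WT and 21309 in *agl62* (-0.10), and it was -0.02 without *HTA6*.

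H2A.Z was the H2A variant with a higher sum in *agl62*, 15360 in WT and 15860 in *agl62* (log2 ratio 0.05, counting interval 0.03 to 0.07). *HTA9* (AT1G52740) led the class per kb, with means of 9540 and 10200 (0.10, 0.07 to 0.12), and *HTA11* (AT3G54560) had 3740 and 3890 (0.06). *HTA8* (AT2G38810) was lower, with 2080 and 1770 (-0.23, -0.29 to -0.18), and the sum without *HTA9* turned to -0.04. Per kb, H2A.Z genes gave 18.0% of the H2A level in WT and 19.7% in *agl62*, replicative H2A 43.3% and 42.4%, H2A.W 28.9% and 28.4%, and H2A.X 9.69% and 9.54%. The log2 ratio of the H2A.W sum was lower than that of H2A.Z by 0.15 (difference -0.15, counting interval -0.17 to -0.12). Scaling the columns to equal totals does not change this difference. It rests on the leading gene of each class, since the sums gave -0.02 for H2A.W without *HTA6* and -0.04 for H2A.Z without *HTA9*. The difference was also looked at after seeing the data, and it was not set against the spread between libraries.

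Of the 8 H2B genes, 5 had lower and 3 had higher means in *agl62*, and the sum was 93048 in WT and 89336 in *agl62* (log2 ratio -0.06, counting interval -0.07 to -0.05). *HTB2*, the most abundant per kb, had means of 24900 and 23800 (-0.07), and *HTB4* (AT5G59910) had 30400 and 28200 (-0.11). The lowest ratio was that of AT2G37470, with 4620 and 3920 (-0.24, -0.27 to -0.20). The highest was that of AT2G28720, a weakly expressed gene with 343 and 453 (0.40, 0.28 to 0.52). *HTB9* (AT3G45980) had 15600 and 16300 (0.06), *HTB11* (AT3G46030) 9030 and 8600 (-0.07), *HTB1* (AT1G07790) 7700 and 7600 (-0.02) and AT3G53650 455 and 463 (0.03). Without *HTB4* the log2 ratio of the H2B sum was -0.04. Over all classes, the 3 ratios furthest above 0 were those of AT1G13370, AT2G28720 and *HTA12*, whose WT means of 30, 343 and 595 are low for histone genes.

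**Figure D4:**
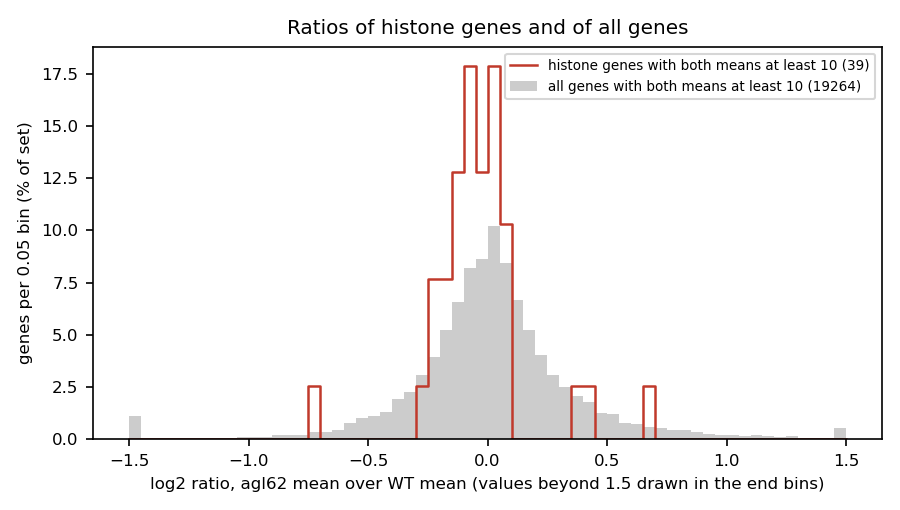
Distribution of log2 ratios (*agl62* over WT) in bins of 0.05, as a percentage of the set, for the 39 core histone genes (red line) and all 19264 genes (grey) with both means of at least 10. The histone genes pile up just below and just above 0, with a median of -0.06 against 0.01 for all genes, and only AT1G75600, AT1G13370, *HTA12* and AT2G28720 lie apart.

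Promoters of plant histone genes are known for an octamer motif that supports S-phase expression. The letters CGCGGATC, or GATCCGCG on the other strand (the motifs searched do not overlap), were found between 250 bases before and 50 bases after the annotated start in 9 of the 41 genes (22.0%), against 40 of 27443 protein-coding genes (0.146%). They were 3 of 5 H3.1 genes, 1 of 3 H3.3 genes, 2 of 8 H4 genes, 2 of 4 replicative H2A genes and 1 of 3 H2A.W genes. The letters TTTCCCGC, a form of the E2F site, were in none of the 41 windows, against 219 of all (0.798%). The 150 bases before the start of the 2 genes with 2 octamers each, the H3.1 gene AT1G09200 (chr1:2972335-2972484, minus strand) and *HTA10* (chr1:18926661-18926810, plus strand), are shown with the octamers in capitals, which begin 90 and 19 bases before the start in the first and 74 and 10 bases before it in the second.
AT1G09200: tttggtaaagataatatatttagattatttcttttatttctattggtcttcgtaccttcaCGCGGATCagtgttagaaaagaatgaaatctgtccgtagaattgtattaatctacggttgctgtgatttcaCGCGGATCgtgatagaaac
HTA10: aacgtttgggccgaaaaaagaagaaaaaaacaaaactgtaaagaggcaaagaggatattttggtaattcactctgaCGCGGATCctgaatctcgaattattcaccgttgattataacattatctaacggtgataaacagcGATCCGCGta

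The 9 genes with the octamer letters had a median log2 ratio of -0.12, from -0.22 to 0.05, and 6 of them were lower in *agl62*. The 30 genes without them and with both means of at least 10 had a median of -0.05, from -0.74 to 0.67, and 19 were lower. Of all genes with both means of at least 10, 47.6% were lower. The genes with the octamer were also the more abundant, with a median WT mean of 14200 against 6165. The 2 sets differ in class too, since the 9 genes include 3 H3.1 and 2 replicative H2A genes but no H2B gene. The parts of level, class and motif were not tested, and a match of letters is not a test of binding.

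Most genes that work with the core histones had lower means in *agl62*. Of 20 genes for linker histones and for proteins that carry or place histones, 16 were lower and 4 were higher (15 lower with equal totals), where 47.6% of all genes were lower (39.3% with equal totals). The median log2 ratio was -0.17, against 0.01 for all genes and -0.01 for genes with both means of at least 1000. The 5 genes of this list for NAP1-type chaperones, which carry H2A and H2B, were all lower. The list was not made to hold the whole family. *NAP1;3* (AT5G56950) had means of 3450 in WT and 2250 in *agl62* (-0.62, counting interval -0.66 to -0.57). The means were 5450 and 3730 for *NRP2* (-0.55), 11800 and 8760 for *NRP1* (-0.43), 8090 and 6160 for *NAP1;1* (-0.39) and 12200 and 9890 for *NAP1;2* (-0.30). *FAS1*, a subunit of the CAF-1 complex that places H3.1 and H4 at replication, had 2920 and 2330 (-0.33). The other CAF-1 subunits were closer to level, with 1070 and 947 for *FAS2* (-0.18) and 6370 and 5900 for *MSI1* (-0.11). *HIRA*, which places H3.3, had 1790 and 1660 (-0.11). The linker histone genes did not share the lower means of most chaperones. *H1.1* (AT1G06760), the most abundant gene of the list, had means of 21500 and 23900 (0.15, 0.14 to 0.17), and *H1.2* had 16700 and 16200 (-0.04). The single gene past 2-fold was *HIS1-3* (AT2G18050), a linker histone gene induced by drought, which had means of 260 and 1030 (1.99, 1.86 to 2.11).

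All 10 genes of DNA replication had lower means in *agl62*, also with equal totals, beside the same 47.6% and 39.3% of all genes. Their means were all above 1000, a level at which the median log2 ratio of all genes was -0.01. Their log2 ratios ran from -0.34 (*PCNA1*, 4430 in WT and 3490 in *agl62*) to -0.12 (*TSO2*, 7070 and 6500), with a median of -0.19. PCNA is the sliding clamp of DNA polymerase, and TSO2 a subunit of ribonucleotide reductase. Of 5 core histone genes outside the set, 3 had both means of at least 10, namely *HTR11* (1110 and 853, -0.38), AT3G09480 (268 and 306, 0.19) and *HTB10* (0.20). *HTA4* was listed at 0 in both genotypes, and AT1G08170 had means of 2.28 and 3.29.

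Endosperm markers summed to less and green tissue genes to more in *agl62*, while the seed coat markers summed to nearly the same. The 12 endosperm markers, *AGL62* among them, summed to 2120 in WT and 761 in *agl62*; 5 had both means of at least 10, of which 4 were lower by 2-fold or more, namely *MEA* (-2.74), *PHE1* (-1.61), *AGL36* (-1.59) and *FWA* (-1.01), and *FIS2* was higher (0.77). Of the 7 others, *AGL90* was listed at 0 in WT and had a mean of 9.4 in *agl62*, *RGE1* (AT1G49770) had 0.326 and 68.3, and the remaining 5 had lower means in *agl62*. The 6 seed coat markers summed to 175810 and 176140, with log2 ratios from -0.10 (*TT1*) to 0.07 (*TT12*). All 15 genes of green tissue had higher means in *agl62*, from 0.24 (*PSAF*) to 1.55 (*RBCS1B*), and the sum was 84646 in WT and 119471 in *agl62*; *RBCS3B* (1.54) and *PSBR* (1.08) were also past 2-fold. The 6 pollen and sperm genes summed to 709 and 625, with *GEX2* at 0 in both genotypes and *DUO1* at 0 in WT. The 5 egg cell genes summed to 190 and 231, mostly through *EC1.4* (169 and 175). All 5 had higher means in *agl62*, but only 2 of them had both means of at least 10, the level at which 51.3% of all genes were higher. The counting intervals of *EC1.2* (-0.87 to 2.71) and *EC1.4* (-0.13 to 0.23) held 0. The means of *EC1.1* (6.99 and 26.8) and *EC1.3* (1.87 and 8.78) were low. The part of these cell types in the ratios of the histone genes was not tested.

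**Figure D5:**
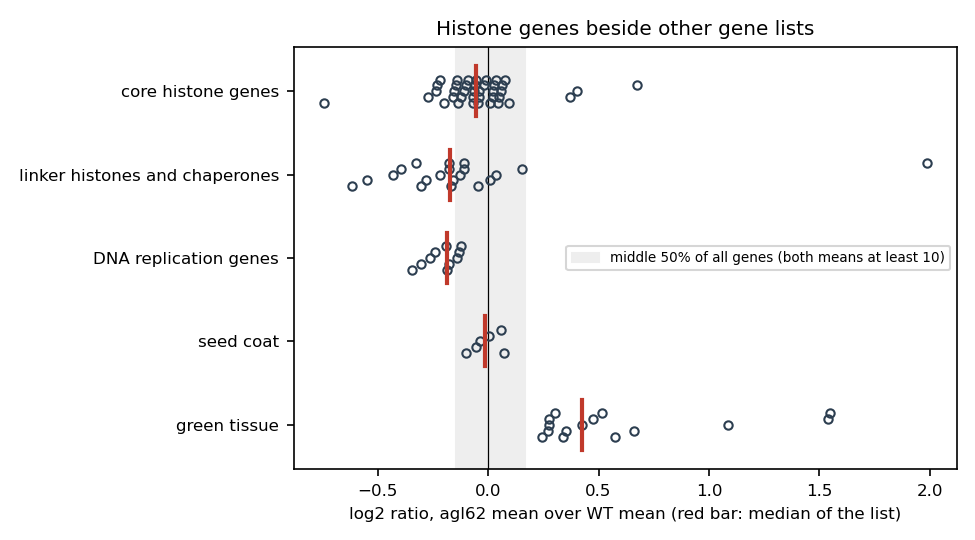
Log2 ratio (*agl62* over WT) of each gene with both means of at least 10 in the core histone set (39 genes), linker histones and chaperones (20), DNA replication genes (10), seed coat markers (6) and green tissue genes (15). Circles are genes, red bars are medians (-0.06, -0.17, -0.19, -0.01 and 0.43), and the grey band holds the middle 50% of all genes; the point at 1.99 is *HIS1-3*.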

How the data were processed

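The authors sequenced RNA of whole seeds as 100-base paired-end reads, used TopHat to place the reads on TAIR10, discarded reads that mapped to more than 1 place and compared genotypes with DESeq. Per the submitters' processing notes the tools were TopHat and DESeq; their versions, the counting tool, its use of strand and the annotation were not given in the sources used here. Each deposited signal column is the authors' mean over the libraries of 1 genotype, after division of counts by size factors, and holds no single library. The authors' fold change, its log2, p-value and adjusted p-value columns were not used. A test on counts of single libraries (edgeR) had been planned and could not be run, so no p-value is given.

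Log2 ratios of means, class sums and shares per kb of exons were computed here (Python 3.11.15, numpy 2.4.6, pandas 2.3.3, matplotlib 3.10.9). Exon length was that of the joined exons of all annotated transcripts of a gene, so levels per kb of different genes depend on the annotation. Counts of genes used both means of at least 10. Depth was read from means under 1, all 1522 of WT and 1737 of *agl62* being whole-number sums of 3 steps, and this was tested on simulated data. Depth spanned 3.02-fold among WT libraries and 1.23-fold among *agl62* libraries. All 41 identifiers matched RefSeq (TAIR10.1), the source of names, lengths, coordinates and sequences; the table holds none. Named genes were every H3 gene, the most abundant gene and the highest and lowest ratio of each class, genes under 10, and in other lists the extremes and genes past 2-fold; other chaperone, histone and marker genes were named after their values were seen. The alternatives were pseudocounts of 1 and 10, scaling to equal totals or to a median ratio of 1, other minimums of 100 or none, a 1.5-fold threshold, the median of ratios in place of sums, sums without the highest gene, and shares without division by length or with copy-free length. The members and lists were chosen with earlier results of these data known.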

Additional observations from a re-analysis of the deposited data

How the results depend on the processing

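No paired analysis was possible because only genotype means, and no single libraries, are listed; for the same reason leaving out replicates, edgeR and DESeq2 were not run. Most differences are of a few percent, and the spread between libraries, which would be needed to judge them, was not measured here. Pseudocounts of 1 and 10 moved no class result beyond its counting interval. Scaling to a median ratio of 1 shifted the log2 ratios by 0.0000, so it could not move any result. Copy-free length differed from full length only for H4 genes. It was applied only to shares of H3 and H2A, which it could not change. With equal totals, the log2 ratio of sums was -0.0768 for H3.1, 0.0924 for H3.3, 0.0071 for H4, -0.0657 for replicative H2A, -0.0378 for H2A.X, -0.0546 for H2A.W, 0.0946 for H2A.Z, -0.0104 for H2B and 0.0058 for all members. The median of gene ratios in place of the sum gave -0.1539 for H3.1, -0.0898 for replicative H2A, -0.1414 for H2A.X, -0.0615 for H2A.W, -0.0420 for H2B and -0.0590 for all members above 0. Without the gene with the highest WT mean, the sums gave -0.1103 for H3.1, -0.3388 for the other H3 genes, -0.0226 for H4, -0.0615 for replicative H2A, -0.2713 for H2A.X, -0.0167 for H2A.W, -0.0402 for H2A.Z, -0.0352 for H2B and -0.0558 for all members, so that H2A.Z turned direction through *HTA9*. A 1.5-fold threshold gave 1 lower and 1 higher gene in place of 0 and 0. Not divided by length, the H3.1 share of H3 became 35.7% (WT) and 33.1% (*agl62*), with 19.4% and 21.1% for the H2A.Z share of H2A. The direction of H3.1 (lower) and of H3.3 (higher) was the same under each alternative run; the causes of the other shifts were not tested.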
